A study of Mus musculus with 4 samples.

Results

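The Pigp locus was examined as all H3K4me3 peaks overlapping a 25 kb interval of chromosome 16, from 94575000 to 94600000 in the mm9 mouse genome, which was chosen for Pigp and its neighbour Ttc3. 1 region met this rule, of 18786 regions formed by joining the overlapping peaks of all lists. It was built from 2 peaks, 1 of 17316 in untreated Wbp7+/- cells and 1 of 17313 in LPS-treated Wbp7+/- cells. The interval held 0 of 14599 peaks in untreated and 0 of 15086 in LPS-treated Wbp7-/- cells. The peak lists carry no gene names and no mm9 annotation was used here, so the link to Pigp rests on the interval, and the place of the gene starts within the peak was not analysed here.

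Trimethylation of lysine 4 of histone H3 (H3K4me3) was mapped by chromatin immunoprecipitation and sequencing in primary macrophages grown from mouse bone marrow, taken at day 7 of differentiation. The mice had a mixed background of C57BL/6 (94%) and 129/Ola (6%), and were either Wbp7+/- or Wbp7-/- by their genotype labels, which name no other allele. Each genotype was sampled without treatment and with 10 ug/ml of lipopolysaccharide (LPS), labelled as 4 h, giving 4 groups of 1 library. The deposited list of LPS-treated Wbp7+/- cells gives 24 h in its first line, and which time holds for that library could not be settled. No control with 2 intact Wbp7 copies was analysed here, the labels do not say how the allele was deleted or how many mice were pooled, and macrophage marker genes could not be checked without positions for them in mm9. With 1 library a group no test between groups was run, and the number of reads is not given for any library, so the depth behind a missing peak is unknown.

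Pigp encodes a small subunit of the enzyme complex that adds N-acetylglucosamine to phosphatidylinositol, the first step in making glycosylphosphatidylinositol (GPI). This glycolipid is built in the endoplasmic reticulum and anchors many proteins to the outer face of the cell membrane, among them Cd14, a co-receptor for LPS on macrophages. Wbp7, also known as Kmt2b, encodes a methyltransferase of lysine 4 of histone H3 with a CXXC domain that binds unmethylated CpG dinucleotides. H3K4me3 marks the starts of most active genes, and of many CpG-rich promoters of genes that are little transcribed. Ttc3 encodes a ubiquitin ligase with tetratricopeptide repeats.

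RefSeq's sequences around gene starts show how closely the starts of Pigp and Ttc3 lie together. Each window holds 250 bases before and 50 bases after a start in the GRCm38.p6 build, whose positions cannot be set beside the mm9 positions of the peaks. The table listed 4 windows for Pigp, on the minus strand, and 1 for Ttc3, on the plus strand. In order from the most upstream, the Pigp starts lay 276, 29, 189 and 409 bp from the Ttc3 start. The most upstream lay at a higher position than the Ttc3 start, and the others at lower positions. The window of the most upstream Pigp start shared 0 bp with the Ttc3 window. The Pigp window whose start lies nearest to that of Ttc3, 29 bp away and facing the other way, was at chr16:94370661-94370960 (GRCm38.p6), and the Ttc3 window was at chr16:94370489-94370788 (GRCm38.p6). Both are printed 5′ to 3′ on the gene's own strand because they share 128 bp, each being the reverse complement of the other there. Capitals mark the letters CACGTG and GCATGCGC or its reverse complement, which fall in the shared stretch.
Pigp: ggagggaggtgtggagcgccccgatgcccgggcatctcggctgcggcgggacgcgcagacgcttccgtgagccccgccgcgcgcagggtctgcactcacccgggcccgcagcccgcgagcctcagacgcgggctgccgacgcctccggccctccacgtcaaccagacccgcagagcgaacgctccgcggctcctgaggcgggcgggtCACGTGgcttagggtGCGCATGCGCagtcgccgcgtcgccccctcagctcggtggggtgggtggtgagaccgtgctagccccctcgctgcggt
Ttc3: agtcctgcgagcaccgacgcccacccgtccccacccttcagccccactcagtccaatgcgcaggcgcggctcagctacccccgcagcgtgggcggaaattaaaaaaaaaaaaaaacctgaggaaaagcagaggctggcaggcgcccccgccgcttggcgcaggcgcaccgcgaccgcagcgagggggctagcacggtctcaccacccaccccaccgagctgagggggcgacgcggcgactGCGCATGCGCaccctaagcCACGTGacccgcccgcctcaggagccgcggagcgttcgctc

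Over all 4 Pigp starts, which lie within 685 bp of each other, the windows were rich in G, C and CpG. The 4 Pigp windows held 37, 42, 34 and 29 CpG dinucleotides, in order from the most upstream start, and 68.3 to 75.3% G and C. The median over the 32851 windows of the table was 7 CpG dinucleotides and 52.7% G and C. The window printed for Pigp, with 42, had more CpG dinucleotides than 97% of all windows, and that of Ttc3, with 34, more than 92.3%. The other Pigp windows, with 37, 34 and 29, had more than 94.4%, 92.3% and 87.1%. The windows of the table were not limited to genes with an H3K4me3 peak. Of the 27025 genes in the table, 11.9% had a window that overlapped one of another gene on the opposite strand, as Pigp and Ttc3 did.

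**Figure D1:**
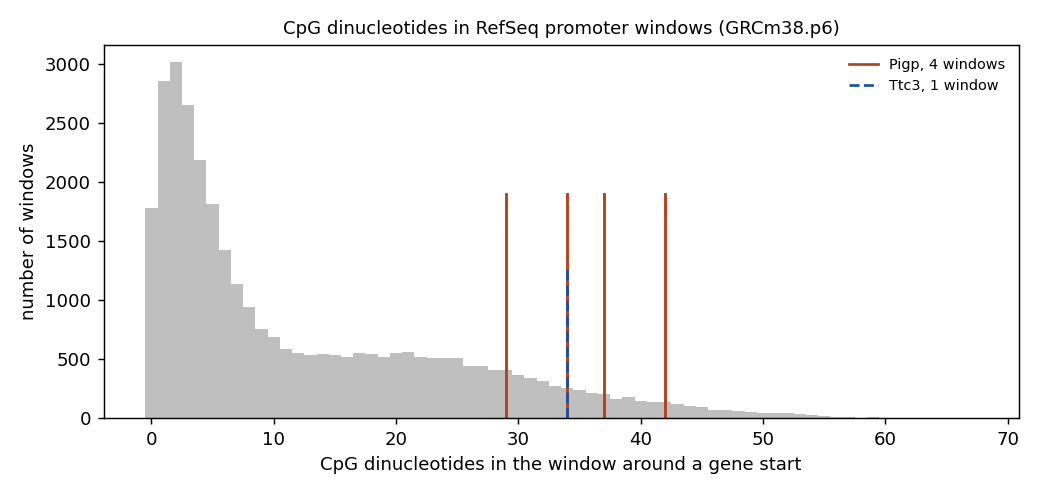
Number of RefSeq promoter windows (y axis) by the number of CpG dinucleotides in the 300 bp window (x axis); lines mark the 4 windows of Pigp (solid) and the window of Ttc3 (dashed), and their heights carry no value. The Pigp windows sit at 29, 34, 37 and 42 CpG dinucleotides, and the Ttc3 window at 34, against a median of 7.

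10 short motifs were searched in these windows as exact letters on both strands, with N for any base. The letters GGGCGG, bound by Sp and KLF factors, occurred in 4 of the 4 Pigp windows and in 35.7% of all windows. GCATGCGC, part of the site of NRF1, occurred in 2 of the 4 Pigp windows and in 2.71% of all windows. Its copies on opposite strands overlap in 1 run of 10 letters, which stands in the printed sequences. CACGTG, an E-box, occurred in 2 of the 4 Pigp windows and in 7.15% of all windows. These 2 windows overlap and hold the same copies, which the Ttc3 window holds as well. CCAAT, bound by NFY, was in 2 Pigp windows and in 37.4% of all. It is the same copy in the overlap of both windows, and the Ttc3 window holds it too. The other 6 motifs were in none of the 4 Pigp windows. For ETS factors the letters CCGGAAG were searched, found in 8.86% of all windows. For the cAMP response element TGACGTCA was found in 1.79% and for YY1 AAGATGGCG in 1.4%. The core promoter box TATAAA was found in 13.6% of all windows. For AP-1 the letters TGACTCA were in 5.2%, and for NF-kB the letters GGAANTCC in 4.77%. A match describes letters and is not evidence of binding.

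Other genes of the GPI pathway were compared by their promoter windows alone, since their peaks could not be located without mm9 positions. Of 29 genes listed for GPI synthesis, transfer to proteins and remodelling, 24 were matched by symbol, and Gpaa1, Pigg, Pigk, Pigm and Pigy were not. By the window richest in CpG of each gene, the 24 ranged from 12 to 44 with a median of 23, against a median of 8 over all genes of the table. Pigp, with 42, came second after Pgap2, a gene of GPI lipid remodelling, with 44. These were the highest of 4 windows for Pigp and of 5 for Pgap2, whereas each other gene had 1 or 2. More windows give more chances of a high value, and the other Pigp windows held 37, 34 and 29. Pigv, a mannosyltransferase of the pathway, had 38, and Piga, the catalytic subunit of the complex to which Pigp belongs, had 28. GCATGCGC occurred in any window of 2 of the 24 genes, Pigp and Mpdu1, and CACGTG in 3, Pigp, Dpm2 and Pigw. The share of all genes with each motif was not computed, so these counts have no background beside them.

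The first question was whether the H3K4me3 peak at Pigp differed with Wbp7. The locus was chosen with earlier results of these data known, so the answer was not open. The shares given below for other peaks describe how common the pattern was and are no test of Pigp. In untreated Wbp7+/- cells the peak ran from 94591214 to 94593687 on chromosome 16 (mm9), 2474 bp wide. In LPS-treated Wbp7+/- cells it ran from 94591479 to 94593581, 2103 bp wide. Both peaks scored 3100, the value at which scores pile up. It is called the ceiling here, and 8950 to 9695 peaks of each list stood at or above it. No peak was called at Pigp in either Wbp7-/- list, and none lay within 5 kb of the Wbp7+/- peaks. The groups of the genotypes therefore did not overlap at Pigp, with a ceiling peak in both Wbp7+/- libraries and no call in both Wbp7-/- libraries. A missing call says that signal stayed below the threshold of the peak caller, and leaves lower amounts of the mark possible.

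A missing Wbp7-/- call was common among weak peaks and rare among peaks with the score of Pigp. Of all untreated Wbp7+/- peaks 19.7% had no peak in untreated Wbp7-/- cells, and of all LPS-treated Wbp7+/- peaks 19.7% had none in LPS-treated Wbp7-/- cells. Among peaks at the ceiling, the class of Pigp, these shares were 0.722% (70 of 9695, 95% Wilson interval 0.572 to 0.911) untreated and 0.865% (82 of 9480, 0.697 to 1.07) with LPS. They were 1.49% and 2.18% when 1 Wbp7-/- peak had to cover at least 50% of the peak, a setting that also counts partly covered peaks. Among ceiling peaks of 2 to 3 kb, the width of both Pigp peaks, 0.439% (17 of 3875, 0.274 to 0.701) untreated and 0.716% (26 of 3629, 0.489 to 1.05) with LPS lacked a Wbp7-/- peak. Joined regions gave a like share. Of 9185 at the ceiling in Wbp7+/- cells with and without LPS, 55 (0.599%, 0.46 to 0.779) had no peak in Wbp7-/- cells, and Pigp was 1 of these 55. The intervals cover counting error over peaks, and not variation between cultures or mice.

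The share of missing calls was higher among narrow ceiling peaks, and the Pigp peak was wider than most of those missing. Of the ceiling peaks under 1.5 kb, 1.85% untreated (1.11 to 3.09) and 1.91% with LPS (1.14 to 3.18) had no Wbp7-/- peak. In the class of 2 to 2.5 kb, which holds both Pigp peaks, 10 of 2236 (0.447%, 0.243 to 0.821) and 17 of 2090 (0.813%, 0.508 to 1.3) had none, so that the intervals of these classes overlap with LPS and not in untreated cells. At 5 kb or more it was 0 of 555 and 0 of 652. Among the 55 regions, the Pigp peak was the 11th widest untreated and the 17th widest with LPS, where the medians were 1882 and 1855 bp. Among all ceiling peaks it was of ordinary width, since 51.1% of those in untreated Wbp7+/- cells and 35.3% of those in LPS-treated Wbp7+/- cells were narrower.

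**Figure D2:**
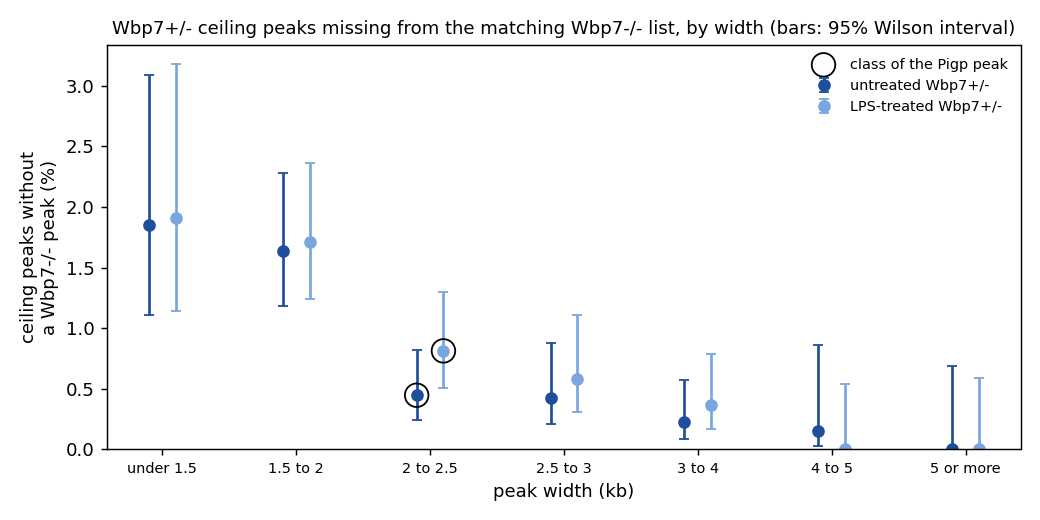
Share of Wbp7+/- ceiling peaks with no peak in the Wbp7-/- list of the same treatment (y axis, percent) by peak width (x axis, kb); points are untreated (dark) and LPS-treated (light) cells, bars are 95% Wilson intervals and circles mark the class of the Pigp peak. The share is 0.447% untreated and 0.813% with LPS at 2 to 2.5 kb and 0% at 5 kb or more in both.

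The second question was whether LPS changed the Pigp peak. The call did not differ between treatments in either genotype, as both Wbp7+/- lists had the peak and both Wbp7-/- lists lacked it. The LPS peak of Wbp7+/- cells lay wholly inside the untreated one, 265 bp further in at the lower end and 106 bp further in at the upper end. It was 371 bp narrower, a ratio of 0.85. Over 8178 regions with a single ceiling peak in both Wbp7+/- lists the median ratio was 0.974, with 80% of regions between 0.846 and 1.14, and 10.5% of regions had a lower ratio than Pigp. Peak width also depends on the depth of each library, which is unknown, and the difference was not tested.

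Within 100 kb of the interval, from 94475000 to 94700000, the lists held 4 further regions, all on the lower side of Pigp. The nearest lay 39.9 kb and 40.7 kb away and, like Pigp, had peaks in Wbp7+/- cells with and without LPS and none in Wbp7-/- cells. The region from 94549296 to 94550514 scored 536.12 untreated and 537.18 with LPS in Wbp7+/- cells, with widths of 1212 and 1175 bp. The region from 94550676 to 94551353 scored 130.48 and 221.95, with widths of 574 and 678 bp. These are far weaker peaks than that of Pigp, and missing calls at such scores were frequent. Of Wbp7+/- peaks scoring from 500 to under the ceiling, 22.4% untreated and 22.2% with LPS had no Wbp7-/- peak, and of those from 100 to under 500 it was 46.8% and 45.3%. The 2 regions are 162 bp apart and may be counted as 1.

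The next 2 regions kept their peak in all 4 lists at the ceiling. The region from 94533485 to 94535745, 55.5 kb from Pigp, was 2236 bp wide in Wbp7+/- cells without LPS and 1882 bp with it. In Wbp7-/- cells it was 2215 bp wide untreated and 2044 bp with LPS. Its Wbp7-/- widths were 0.991 times the Wbp7+/- width untreated and 1.09 times with LPS. The region from 94510770 to 94512443, 78.8 kb from Pigp, measured 1434 and 1219 bp in Wbp7+/- cells. It measured 1674 and 1392 bp in Wbp7-/- cells, 1.17 and 1.14 times the Wbp7+/- widths, against a median of 1.04 and 1.05 over all single-peak regions at the ceiling in both lists compared. These ratios lay within the range of 80% of those regions, 0.913 to 1.21 untreated and 0.903 to 1.25 with LPS. With LPS, both regions were narrower, at 0.842 and 0.85 of the untreated width in Wbp7+/- cells, where the ratio at Pigp was 0.85, and at 0.923 and 0.832 in Wbp7-/- cells. Over 7902 regions with a single ceiling peak in each Wbp7-/- list the median ratio was 0.979, with 80% of regions between 0.868 and 1.13. The 0.842 of the nearer region in Wbp7+/- cells and the 0.832 of the farther one in Wbp7-/- cells thus lay below the range of 80% of regions, and the other ratios within it.

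**Figure D3:**
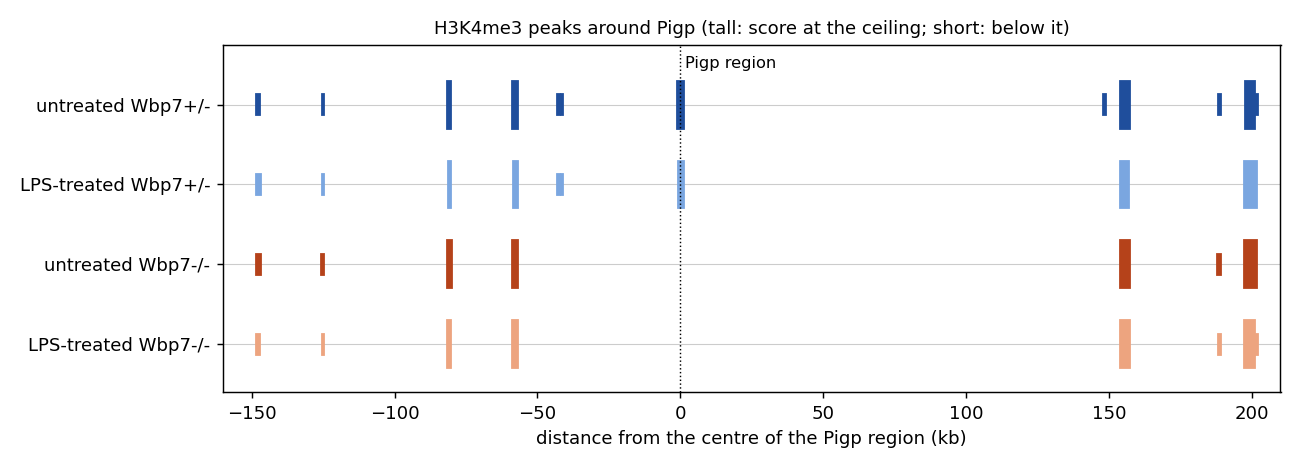
Peaks of the 4 lists (rows) by distance from the centre of the Pigp region (x axis, kb); each box is 1 peak drawn to its width, tall where the score is at the ceiling and short below it. The Pigp peak stands in both Wbp7+/- rows and in neither Wbp7-/- row. The ceiling peaks 55.5 and 78.8 kb below it and 153 and 196 kb above it stand in all 4 rows. These distances run between the edges of the regions, not from the centre.

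**Figure D4:**
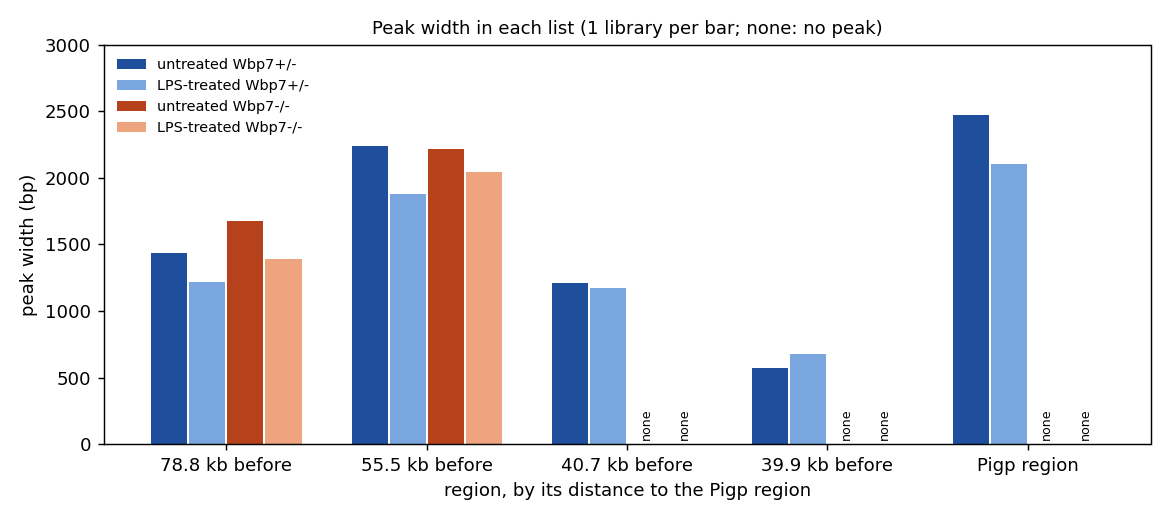
Peak width in bp (y axis, from 0) in each of the 4 lists for the Pigp region and the 4 regions within 100 kb of the interval (x axis, with the distance to the Pigp region on its lower side); each bar is 1 library, so there is no error bar. Pigp measures 2474 and 2103 bp in Wbp7+/- cells and has no bar in Wbp7-/- cells, where the regions at 39.9 and 40.7 kb have none either.

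On the upper side no region lay within 100 kb. The next region with a peak in all 4 lists ran from 94746254 to 94749786, 153 kb from Pigp, at the ceiling and 3210 to 3428 bp wide. The untreated Wbp7-/- list, which lacked the Pigp peak and the weak pair below it, had no peak over 211 kb, from 94535745 to 94746282. That stretch was longer than 84.9% of the 14579 between neighbouring peaks of this list, whose median was 38.8 kb. In LPS-treated Wbp7-/- cells the stretch was also 211 kb, longer than 85.5% of 15066, with a median of 37.4 kb. Much of it was empty in Wbp7+/- cells too, with no peak for 147 kb above the Pigp region untreated and for 153 kb with LPS. The 147 kb ended at a weak peak, scoring 71.37, that was in no other list. In RefSeq's gene order for GRCm38.p6, the protein-coding genes before Pigp are Ripply3, a transcriptional corepressor, Hlcs, holocarboxylase synthetase, and then Sim2 and Cldn14. After it come Ttc3, Vps26c, Dyrk1a, a protein kinase, and Kcnj6, a potassium channel. Non-coding neighbours are left out of this order. None of the flanking peaks was assigned to these genes, because the builds differ.

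Farther out, the shares of regions in all 4 lists and in both Wbp7+/- lists alone were somewhat below those of the whole series. Within 1000 kb of the interval there were 28 other regions. Of these 16 had a peak in all 4 lists, 2 in both Wbp7+/- lists alone (the weak pair beside Pigp), 3 in both Wbp7-/- lists alone and 7 in other combinations. The shares in all 4 lists and in Wbp7+/- cells alone, 57.1% and 7.14%, stand beside 65.4% and 10.9% over the 18786 regions. The 3 of 28 in both Wbp7-/- lists alone are a larger share than the 388 of 18786 in the series, on a small count. At the ceiling in Wbp7+/- cells with and without LPS stood 10 of the 28, and 0 of these 10 lacked a peak in both Wbp7-/- lists, a count too small to set beside the 0.599% of the series. On all of chromosome 16, 22.5% (124 of 550) of untreated and 19.9% (111 of 559) of LPS-treated Wbp7+/- peaks lacked a Wbp7-/- peak, with intervals of 19.3 to 26.2% and 16.8 to 23.4% that include the 19.7% of all chromosomes. Among its ceiling peaks, the class of Pigp, the share was 1.31% (4 of 306, 0.509 to 3.31) in each treatment, with an interval that includes the 0.722% and 0.865% of all chromosomes. Of the 300 chromosome 16 regions at the ceiling in Wbp7+/- cells with and without LPS, 3 were found in Wbp7+/- cells alone, against 55 of 9185 in the series. The others besides Pigp ran from 13436690 to 13438592, 81.2 Mb away, and from 75592768 to 75594278, 19 Mb away. They were narrower than Pigp, at 1903 and 1432 bp in untreated and 1709 and 1503 bp in LPS-treated Wbp7+/- cells.

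Another region found in both Wbp7+/- lists alone, of any score, such as the pair beside Pigp, lay within 50 kb of 16 of the 55 regions (29.1%, 18.8 to 42.1). The same held for 1555 of 9116 (17.1%, 16.3 to 17.8) ceiling regions with a peak in all 4 lists. The distance from Pigp to the nearest Wbp7-/- peak, 55.5 kb, was close to the median of 57.5 kb over the 55 regions, and 28 of them lay farther from one.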

How the data were processed

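Each library has 1 list of peaks. Per the submitters' processing notes, Bowtie and mm9 were used for alignment. Per the file headers, MACS called the peaks, and the track lines hold the word input. Versions and threshold are not given. The score of each peak is the authors' deposited value and ranges from 50 to 3233.06. It depends on depth, so its size was not compared between lists, and peaks of 3100 or above were taken as 1 class, the ceiling. The same score cuts were applied to every list, so which peaks pass them can also depend on depth.

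Groups came from the sample titles. Positions count from 1. Peaks overlapping by at least 1 bp were matched with bedtools 2.31.1 or joined into regions, and the matching was checked on simulated data. Wilson intervals used scipy 1.17.1. Python 3.11.15, pandas 2.3.3, numpy 2.4.6 and matplotlib 3.10.9 were used. Promoter windows are RefSeq's (GRCm38.p6), matched by symbol. The locus, the gene list and the motifs were chosen with earlier results of these data known. The named regions are those of the locus, those within 100 kb, the nearest ceiling regions and those of chromosome 16 at the ceiling in Wbp7+/- cells alone. Alternatives changed the interval, overlap, tolerance, flanks, joining, score minimum and list length.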

Additional observations from a re-analysis of the deposited data

How the results depend on the processing

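Of 44 alternative values 35 stayed close to the reported one and 9 did not. The presence of 1 peak at Pigp in each Wbp7+/- list and of 0 in each Wbp7-/- list held with the interval shifted by 5 kb either way, with 50% of the peak required inside it, without peaks scoring under 100 and with every list limited to its 14599 highest-scoring peaks. Accepting Wbp7-/- peaks within 1 or 5 kb gave 0 lists with a peak at Pigp as well. None of these settings could have changed the result at Pigp, and they make up many of the 35. The Wbp7+/- peaks stood at the ceiling and inside each interval. The nearest Wbp7-/- peak lay 55.5 kb away, and dropping peaks from a list adds none. Flanking regions with a peak in all 4 lists numbered 2 within 100 kb, 1 within 50 kb and 6 within 200 kb. Flanking regions in Wbp7+/- cells alone fell from 2 to 1 with peaks joined within 1 kb, and to 1 with lists of equal length, which drop the weaker peak. Leaving out the LPS-treated Wbp7+/- list, an alternative chosen after seeing the data, left both flanking counts at 2. With 50% of a Wbp7+/- ceiling peak to be covered, the share without a Wbp7-/- peak was 1.49% untreated and 2.18% with LPS, against 0.722% and 0.865%, and this setting also counts partly covered peaks. It was 1.31% untreated and 1.31% with LPS over the ceiling peaks of chromosome 16, and 0.439% over untreated ceiling peaks of 2 to 3 kb. The cause of these shifts was not tested. No paired analysis was possible because the labels give no replicate numbers and the results come from no test. Lists were matched within each treatment. Unknown depth limits every absent call.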
